A study of Mus musculus with 18 samples.

Results

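Cyclins, cyclin-dependent kinases (CDKs) and DNA replication genes were followed across 9 mouse ovaries. Members were chosen by name, not by their values: every probe set of either chip with 1 platform-annotation symbol that is Ccn followed by a letter from a to h, or that begins with Cdk, Cdc, Mcm, E2f, Orc, Rfc, Pola, Pold or Pole, and those of Top2a, Rrm1, Rrm2, Stmn1, Pcna and Mki67. They came to 81 of 6137 named genes and to 104 of 13179 probe sets, 77 of them on chip A and the other 27 on chip B. A probe set was tested when it reached a detection limit on at least 2 of its 9 arrays. That left 81 member probe sets of 68 genes among 6408 tested. The 13 genes with no tested probe set were Cdkn1c, Cdkn3, E2f3, E2f5, Ccna1, Cdc6, Ccnb1ip1, Cdc73, Cdk2ap2, Cdk5r1, Cdk7, Pola1 and Pold1, so counts below cover the brighter members only. The name rule also took in genes that serve other processes, such as Cdc42, a regulator of cell shape, and Cdcp1, a membrane glycoprotein.

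The series compares ovaries that carry the LHCTP transgene, a source of excess luteinizing hormone (LH), with wild-type ovaries. Mice were of the CF-1 stock or of the CF-1xC57BL/6 hybrid, at 2 and 5 months of age, which gave 4 wild-type and 4 untreated transgenic ovaries. By the labels, both transgenic ovaries of 2 months were cystic. At 5 months the one from CF-1 was a granulosa cell tumour and the one from the hybrid was a luteoma. A ninth ovary, CF-1 transgenic and 5 months old, had received human chorionic gonadotropin (hCG), which acts on the LH receptor, and was labelled a luteoma. Each condition had 1 array on each of 2 chip types, 18 arrays in all. The labels state no repeat animal, no pooling and no promoter for the transgene. For chip B of the tumour one label gives 2 months while its title and source give 5 months, and the latter were used.

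The cell cycle is driven by cyclins that bind and activate CDKs. D-type cyclins with Cdk4 act in G1, Ccne1 with Cdk2 at the entry into S phase, and cyclins A and B with Cdk1 towards mitosis, while the Cdkn proteins restrain these kinases. In G1 the origin recognition complex (Orc) loads the Mcm2 to Mcm7 helicase on DNA, and in S phase polymerases with the clamp Pcna copy the template, using nucleotides made by ribonucleotide reductase (Rrm1 with Rrm2). In the ovary, granulosa cells of growing follicles divide and luteal cells largely do not, and Ccnd2 and Cdkn1b are known for their part in granulosa cell division and in the exit from it.

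Promoter sequences, from RefSeq on build GRCm38.p6, were at hand for 69 of the 81 member genes. The stretches shown are the 150 bases before the annotated start, read 5′ to 3′ on the strand of the gene, in lower case. Capitals mark 3 kinds of letters found on either strand: CCAAT, the CHR letters TTTGAA, and the E2F-like letters TTTNGCGC or TTTCCCGC. The first set shows some of the genes that had their lowest levels in the same 4 ovaries. It holds Mki67 (chr7:135716380-135716529, minus strand), Mcm3 (chr1:20820313-20820462, minus strand) and Rrm1 (chr7:102441545-102441694, plus strand).
Mki67: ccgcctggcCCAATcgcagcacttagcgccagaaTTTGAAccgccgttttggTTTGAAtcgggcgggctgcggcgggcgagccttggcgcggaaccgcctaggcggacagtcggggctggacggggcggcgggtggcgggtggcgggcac
Mcm3: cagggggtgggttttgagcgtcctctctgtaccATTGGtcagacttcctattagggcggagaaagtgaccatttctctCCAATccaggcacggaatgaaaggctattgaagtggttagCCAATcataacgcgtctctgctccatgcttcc
Rrm1: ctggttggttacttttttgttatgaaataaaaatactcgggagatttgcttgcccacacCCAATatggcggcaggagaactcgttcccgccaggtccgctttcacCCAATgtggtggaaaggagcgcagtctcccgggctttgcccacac

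The second set shows some of the genes that read at least 2-fold higher in the tumour than in the wild-type ovary of that strain and age. It holds Cdk1 (chr10:69352913-69353062, minus strand), Top2a (chr11:99024190-99024339, minus strand) and Rrm2 (chr12:24708104-24708253, plus strand).
Cdk1: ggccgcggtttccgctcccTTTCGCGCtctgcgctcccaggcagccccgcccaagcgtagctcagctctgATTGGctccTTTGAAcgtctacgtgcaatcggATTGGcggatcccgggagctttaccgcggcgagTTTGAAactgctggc
Top2a: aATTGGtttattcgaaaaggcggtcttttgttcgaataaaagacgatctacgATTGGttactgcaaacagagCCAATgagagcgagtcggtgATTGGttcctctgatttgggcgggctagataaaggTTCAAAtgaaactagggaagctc
Rrm2: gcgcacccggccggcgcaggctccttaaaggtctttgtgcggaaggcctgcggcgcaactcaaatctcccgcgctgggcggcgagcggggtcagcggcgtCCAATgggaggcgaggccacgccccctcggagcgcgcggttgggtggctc

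CCAAT letters stood in all 6 stretches, 4 times in Top2a and once in Rrm2. CHR letters stood in Mki67, 116 and 98 bases before the start, in Cdk1, 71 and 15 bases before it, and in Top2a, 23 bases before it. Of the 6, only Cdk1 held E2F-like letters, 131 bases before its start. The 6 are not all the genes of these groups. The same stretch of Cdk4, which was 2.01-fold higher in the tumour, held none of these letters. That of Mcm2, which shared the 4-ovary split, held CHR letters 70 bases before the start and no CCAAT. Mcm7, of the same split, held CCAAT before both of its annotated starts. In the full 250 bases before the start, E2F-like letters were found for 12 of 69 member genes (17.4%) and for 2.31% of 27025 genes. CCAAT was found for 42 member genes (60.9%) against 37.5% of all genes, and CHR letters for 14 (20.3%) against 18.3%. Among 11 cyclins, kinases and activators of S, G2 and M phase, 6 held CHR letters (54.5%). A match of letters is a description of the window and not a bound site.

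Before scaling, the trimmed mean of the 9 arrays spanned 907 to 1756 units on chip A and 542 to 921 units on chip B. Levels below are scaled intensities of a probe set, compared between ovaries only within that probe set. Log2 differences use values raised to a floor, which shrinks those of dim probe sets, and a fold against an ovary under the floor is given as a lower bound. With no repeated condition, limma tested genotype, age and strain, each over 4 against 4 untreated ovaries, and interactions of genotype with strain and age, while single pairs of ovaries have no test and no p-value. In tissue RNA of this kind, fewer dividing cells and less RNA per cell cannot be told apart. Summed levels of markers of ovarian and other cells are given beside the pairs of ovaries.

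**Figure D1:**
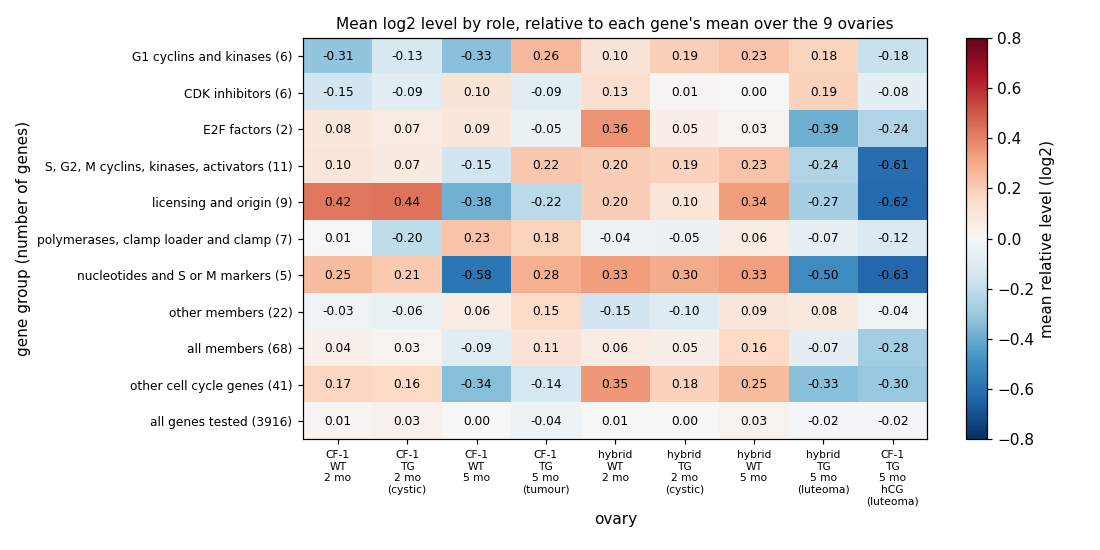
Heat map of the mean level of each gene group in the 9 ovaries, in log2 units relative to each gene's own mean over those ovaries; rows are groups with their number of tested genes, columns are ovaries. The licensing row runs from 0.44 in the CF-1 cystic ovary to -0.62 in the hCG-treated ovary, while the row of all 3916 genes stays within 0.04 of 0.

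Mki67 and 10 other members were lowest in the same 4 of the 9 ovaries: the wild type of 5 months in CF-1, the tumour, the hybrid luteoma and the hCG-treated ovary. Mki67, the antigen of dividing cells stained as Ki-67, read 2395, 1931, 1130 and 1405 units in the CF-1 wild type and cystic ovary of 2 months and the wild type and tumour of 5 months. In the hybrid it read 2038, 1799, 1937 and 1030 units in the wild type and cystic ovary of 2 months and the wild type and luteoma of 5 months, and in the hCG-treated ovary 827 units. The 4 low ovaries, 827 to 1405 units, did not overlap the other 5, which lay between 1799 and 2395 units. Among the 68 member genes, 11 showed the same split, with all 4 of these ovaries below the other 5: Mki67, Ccna2, Cdc45, Mcm2, Mcm3, Mcm4, Mcm7, Mcm10, Orc5, Pcna and Rrm1. The split was taken from the values of Mki67 in these data and has no test. Without Mki67 it was shown by 10 of 67 member genes (14.9%), beside 5.87% of all 3916 named genes tested. Mcm5, Mcm6, Rrm2, Stmn1, Top2a and Cdk1 were among the members that did not show it.

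Mcm7, a subunit of the helicase, read 3093, 2655, 1908 and 2253 units in CF-1, 2555, 2504, 3007 and 1841 units in the hybrid, each in the order above, and 1146 units with hCG. Mcm3, another subunit, read 676, 611, 344 and 427 units in CF-1, 667, 539, 479 and 407 units in the hybrid, and 270 units with hCG. In both genes the hCG-treated ovary stood lowest of the 9. Ccna2, the cyclin of S phase and G2, read 1390, 1414, 776 and 1031 units in CF-1, 1203, 1317, 1601 and 759 units in the hybrid, and 580 units with hCG. Rrm1, the large subunit of ribonucleotide reductase, read 900, 743, 504 and 592 units in CF-1, 857, 718, 967 and 437 units in the hybrid, and 493 units with hCG. Its lowest ovary was the hybrid luteoma, and its highest the hybrid wild type of the same age. Pcna, the sliding clamp, spanned a narrower range, from 1434 units in the CF-1 wild type of 5 months to 2154 units in both hybrid wild types.

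Over the 9 ovaries, the probe sets most like Mki67 by Pearson's r of log2 levels were an unnamed one (r = 0.97), Zfp568 (0.97), another unnamed one (0.95), Cdt1 (0.95) and Ccna2 (0.95). Cdt1 is a licensing factor that loads the helicase at origins and lies outside the name rule. Mcm7 (0.95), Mcm3 (0.94) and Rrm1 (0.93) ranked 7, 10 and 18 of 6407. The median r of the other 80 member probe sets was 0.37, with 54 of them positive, beside 0.04 over all 6407, and 8 members lay among the top 100. All these correlations rest on the same 9 ovaries, which differ in strain, age and genotype.

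Of 64 further cell cycle genes on a list of replication, spindle and checkpoint factors, 41 were tested. Among these, 16 (39.0%) were lower in all 4 of the named ovaries than in the other 5, beside 5.87% of all 3916 genes tested. They included Aurka, Aurkb, Chek1, Fen1 and Smc2. Some of these levels were near or under the chip A floor of 184 units. Aurkb read 17.8 to 184 units in the 4 ovaries, and Chek1 42.2 units in the tumour. The summed level of the oocyte markers Gdf9, Zp1, Zp2 and Zp3, the 4 tested of 8 listed, split the ovaries the same way. It was 6719 to 8322 units in the other 5 ovaries, and 2669 units in the CF-1 wild type of 5 months, 1526 in the tumour, 3107 in the luteoma and 2441 with hCG. In the tumour and with hCG, Zp1 read below 0. Control probe sets of the chips also set 3 of the 4 ovaries apart, with the tumour, the 5-month CF-1 wild type and the luteoma all above or all below the other 6 arrays for 6 of 55 on chip A and 13 of 55 on chip B. The opposite-strand BioDn control read 768 to 812 units in these 3 and 194 to 387 units in the other 6 on chip A, and 531 to 719 against 51.0 to 330 units on chip B. In the hCG-treated ovary the signal ratio of the 3′ to the 5′ control probe sets of Gapdh, a measure of RNA integrity, was 1.35 on chip A and 1.30 on chip B, beside 0.78 to 0.98 and 0.87 to 1.05 on the other arrays. The part of oocyte number, of RNA quality or of array handling in the split was not tested.

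**Figure D2:**
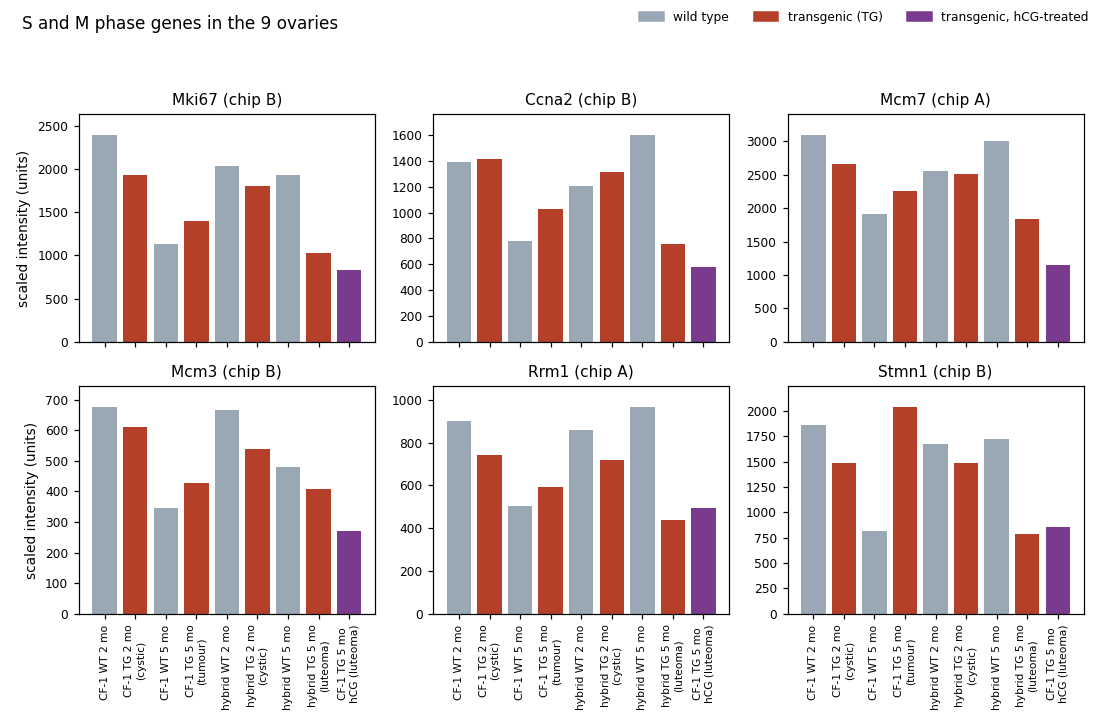
Scaled intensity (units, axis from 0) of 6 S and M phase genes in each of the 9 ovaries; each bar is 1 array, grey for wild type, red for transgenic and purple for the hCG-treated ovary, so there is no error bar. Mki67, Ccna2, Mcm7, Mcm3 and Rrm1 are lowest in the same 4 ovaries, while Stmn1 is highest in the tumour at 2041 units.

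Genotype came first among the comparisons, and asked what the transgene altered whatever the strain and age. With limma, 0 of 81 member probe sets passed an adjusted p of 0.05, and 0% of all 6408 did. At an unadjusted p under 0.05, 0 members were higher in transgenic ovaries, beside 4.68% of all, and 3 were lower (3.70%), beside 5.34% of all. The 3 were Cdca7, Cdkn1b and a dimmer probe set of Cdk2ap1. Cdca7, which has a part in keeping DNA methylated, read 1871, 1528, 1928 and 1654 units in the wild types of CF-1 at 2 and 5 months and of the hybrid at 2 and 5 months. Their transgenic partners read 1378, 986, 1459 and 1013 units. All 4 pairs were lower in the transgenic ovary and the groups did not overlap, yet the log2 difference of -0.55 ± 0.15 (SE, n = 4 against 4) had an adjusted p of 0.31 in limma. Cdkn1b, which encodes the CDK inhibitor p27, was also lower in all 4 pairs, by a log2 difference of -0.55 ± 0.20 (SE), at an adjusted p of 0.47 in limma.

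The median log2 difference between genotypes was -0.03 over the 68 member genes and -0.01 over all 3916. All 6 G1 cyclins and kinases had positive estimates, with a median of 0.15, and 8 of 9 licensing genes had negative ones, with a median of -0.09. The other genes of lowest p named by rule were Ccnc, Ccng2, Cdk16, E2f1, Cdcp1, Mcm6, Ccnd2 and the chip B probe set of Cdkn1a. Their log2 differences lay between -0.50 for Mcm6 and 0.71 for Cdkn1a, with adjusted p from 0.53 to 0.66 in limma. In none of the 8 did the difference exceed the spread between ovaries by this test.

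The transgene was compared between strains and between ages by interaction terms in limma, chosen after the values were seen. No member passed for genotype by strain (0 of 81, beside 0% of all) or for genotype by age (0 of 81, beside 0% of all). At an unadjusted p under 0.05 the counts were 6 members (7.41%), beside 5.43% of all, for strain and 0 members, beside 2.76% of all, for age. One of the 6 was Ccnd2, discussed with the G1 genes.

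**Figure D3:**
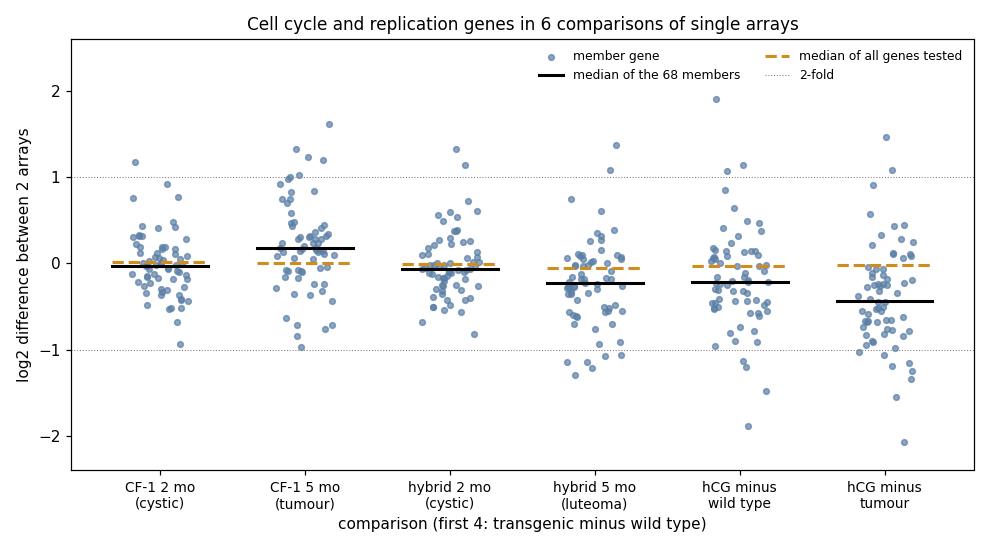
Log2 difference of each of the 68 tested member genes (points) in 6 comparisons of 2 arrays; the black bar is their median, the dashed orange bar the median of all 3916 genes tested and the dotted lines 2-fold. The member median lies at 0.17 for the tumour pair and at -0.43 for the hCG-treated ovary against the tumour.

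In the cystic ovaries of 2 months, members lay near their wild-type partners. Over the 68 genes the median log2 difference was -0.03 in CF-1 and -0.06 in the hybrid, beside 0.01 and -0.01 over all genes. In CF-1, 1 member was at least 2-fold higher, beside 2.95% of all probe sets, and 0 were lower, beside 2.81%. The one was Ccnc, a cyclin of the transcription machinery, at 139 units in the wild type and 416 units in the cystic ovary, at least 2.26-fold. In the hybrid, 2 members were at least 2-fold higher, beside 4.35%, and 1 was lower, beside 4.43%. Those higher were Cdk5, a kinase known from neurons, at 225 and 494 units, and Cdkn1a, the CDK inhibitor p21. On chip B Cdkn1a read 92.0 and 725 units, at least 2.49-fold. On chip A it read 314 and -661 units, so this gene has no settled direction here. The one lower was a dimmer probe set of Top2a, while the brighter one read 558 and 783 units, so its probe sets disagreed.

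In the granulosa cell tumour, Ccnd2, Stmn1, Top2a, Rrm2, Cdk1 and Cdk4 read at least 2-fold higher than in the CF-1 wild type of 5 months. In this pair 7 member probe sets were at least 2-fold higher, beside 5.04% of all, and 2 were at least 2-fold lower, beside 7.10%. The 7 belonged to these 6 genes, Top2a with both of its probe sets. The median over the 68 genes was 0.17, with 46 higher and 22 lower, beside 0.004 over all genes. By role, the medians were 1.20 for 5 nucleotide and S or M phase genes (5 of 5 higher), 0.60 for 6 G1 genes (4 higher), 0.41 for 11 genes of S, G2 and M (9 higher) and 0.05 for 9 licensing genes (5 higher).

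Cdk1, the mitotic kinase, read 5978 units in the tumour and 2948 to 5273 units in the other 8 ovaries. Cdk4, the kinase of the D-type cyclins, read 11626 units in the tumour and 5797 to 8092 units in the other 8. Both were highest in the tumour and lowest in its wild-type partner, at 2.03-fold and 2.01-fold between them. Stmn1, which destabilises microtubules for mitosis, read 1865, 1483, 813 and 2041 units in CF-1, 1672, 1490, 1720 and 781 units in the hybrid, and 858 units with hCG. It was 2.51-fold higher in the tumour than in its partner, but only slightly above the CF-1 wild type of 2 months. Top2a, the topoisomerase that separates replicated DNA, read 853 units in the tumour on chip B, where the other 8 ovaries lay between -152 and 783 units, and 1011 units on chip A, where they lay between -191 and 697 units. Rrm2, the small subunit of the reductase, read 1504 units in the tumour and 656 units in its partner, 2.29-fold, but 1313 to 1625 units in the 5 ovaries in which Mki67 was high. Dimmer probe sets of Rrm2 were 1.06-fold and 1.91-fold higher in the tumour than in its partner. Ccnd2 read 1030 units in the tumour, below the hCG-treated ovary at 1256 units and the hybrid ovaries at 1446 to 1882 units. Thus the tumour exceeded every other ovary for Cdk1, Cdk4, Stmn1 and Top2a and not for Rrm2 or Ccnd2. Such a rank was common: 17 of the 68 member genes were highest in the tumour, beside 870 of 3916 genes tested.

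Other values stood beside those of the tumour pair. The wild-type partner was itself low: of the 9 ovaries it had the lowest level of Cdk1, Cdk4, Rrm2 and Mcm2. The summed level of 8 granulosa cell markers was highest in the tumour at 87840 units, beside 40643 to 66442 units elsewhere, with Hsd17b1, Inhba and Inhbb at 16047, 12028 and 10279 units. Of the same list, Inha read 14779 units in the tumour and 19568 units in its partner, Gja1 14836 units beside 16331 in the CF-1 cystic ovary, and Amh, of small growing follicles, 415 units, its lowest level. The luteal sum of 5 markers was lowest there at 24256 units, with Star at 188 units. The sum of 7 epithelial markers was 1674 units in the tumour and 19104 units in its partner, and that of 5 macrophage markers 30965 and 58504 units. The part of the cell makeup in these levels was not tested. Both arrays of the pair shared the BioDn control level given above.

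Restraints of the cycle differed among themselves in the tumour. This ovary was the lowest of the 9 for 5 of 68 member genes, beside 912 of 3916, and the highest for 17, beside 870. Cdkn1b read 1333 units, the lowest of the 9 ovaries, and Cdkn2d, the inhibitor p19 of Cdk4, read 326 units beside 518 to 968 units elsewhere. Cdkn2c, the inhibitor p18 of the same kinase, read 2806 units, the highest of the 9, beside 1457 to 2218 units elsewhere. The 2 members at least 2-fold lower in this pair were dimmer probe sets of Cdkn1a and Ccnd3. In Cdkn1a the chip B probe set read 718 units against 649 in the wild type while the chip A probe set read 103 against 641, so this gene has no settled direction here. For Ccnd3 the brighter probe set read 2922 against 3446 units.

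In the hybrid luteoma, replication genes were lower than in the hybrid wild type of the same age. At least 2-fold lower were 8 member probe sets (9.88%), beside 8.27% of all, and 2 were at least 2-fold higher (2.47%), beside 6.57%. The count of lower members was thus near the background. The median over the 68 genes was -0.23, with 47 lower and 21 higher, beside -0.05 over all genes. By role, the medians were -0.91 for nucleotide and S or M phase genes (5 of 5 lower), -0.61 for licensing genes (8 of 9 lower), -0.28 for S, G2 and M genes (8 of 11 lower) and -0.26 for polymerases and clamp (6 of 7 lower).

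The 8 lower probe sets belonged to Cdc25c, Mcm4, Rrm1, Stmn1, Ccna2, Mcm6, Top2a and Orc2, the last 2 by a dimmer probe set. Mcm4, of the helicase, read 703 units in the wild type and 303 units in the luteoma, 2.32-fold lower. Mcm6 read 1731 and 826 units, 2.10-fold lower. Cdc25c, the phosphatase that activates Cdk1, read 450 and 20.1 units, at least 2.45-fold lower. The exception among licensing genes was Mcm5, at 869 and 915 units. Higher were Cdkn1a on chip B, at -182 and 752 units, at least 2.59-fold, and Pold4, a small subunit of polymerase delta, at 223 and 473 units, 2.12-fold. Among the 41 further cell cycle genes, 10 were at least 2-fold lower and 1 was higher, with a median of -0.78 and 32 lower. Granulosa markers were lowest of the 9 ovaries in the luteoma, at 40643 units beside 56950 units in its partner, and the oocyte sum was 3107 against 7308 units. The luteoma and its partner read 66644 and 45815 units for 5 luteal markers, 42026 and 23457 units for 5 macrophage markers, 8776 and 2948 units for 4 endothelial markers, and 10378 and 24805 units for 7 epithelial markers. Some single markers went against their sums. In the luteoma and its partner, luteal Hsd3b1 read 1664 and 3612 units and macrophage Cd74 4640 and 5895 units. Of the granulosa list, Inha read 12184 and 10402 units and Nr5a2 11851 and 10732 units. The 2 arrays also differed in the BioDn control, at 812 and 369 units on chip A. How far these differences contributed was not tested.

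The 68 tested member genes had their lowest mean level in the hCG-treated ovary. Averaged over the 68 genes, the level relative to each gene's mean was -0.28 ± 0.42 in log2 (SD over genes), and 24 of the 68 genes were lowest there, beside 708 of 3916. Next lowest was the CF-1 wild type of 5 months at -0.09, and highest were the hybrid wild type of 5 months at 0.16 and the tumour at 0.11. Compared with the tumour, whose array the tumour pair also uses, 9 member probe sets (11.1%) were at least 2-fold lower, beside 11.6% of all, and 3 (3.70%) were higher, beside 13.2%. The median over the 68 genes was -0.43, with 53 lower and 15 higher, beside -0.02 over all genes. Without the filter on dim probe sets it was -0.25. Over the 41 further cell cycle genes the median was -0.06, with 17 higher and 24 lower. All 11 S, G2 and M genes were lower, with a median of -0.78, and so were all 5 nucleotide and S or M phase genes, with a median of -0.77.

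Cdca5, the cohesin regulator sororin, read 522 units with hCG and 1283 to 2184 units in the other 8 ovaries. Cdca7 read 550 units with hCG and 986 to 1928 units in the other 8. Mcm5 read 440 units with hCG and 869 to 1308 units in the other 8. Each of these 3 genes stood clear of the range of the other ovaries. Top2a read -152 units with hCG on chip B and -191 units on chip A, at least 2.94-fold and at least 5.50-fold lower than in the tumour. Poldip3, a partner of polymerase delta that also binds RNA, read 1110 and 2815 units, 2.54-fold lower. Stmn1, Ccne1, Ccnb2, Cdca4, Cdca5 and Mcm5 completed the genes at least 2-fold lower than in the tumour. Higher with hCG than in the tumour were Cdkn2d, at 897 and 326 units, Cdkn1b, at 2828 and 1333 units, and a dimmer probe set of Ccnd3. Cdkn2d with hCG lay within the 834 to 968 units of the 4 ovaries of 2 months.

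Against the CF-1 wild type of 5 months, which the tumour pair also uses, the hCG-treated ovary had 3 members at least 2-fold higher, beside 7.38%, and 5 lower, beside 6.98%. The median was -0.22, with 44 genes lower and 23 higher, beside -0.03 over all genes. Over the 41 further cell cycle genes it was -0.01, with 18 higher and 22 lower. Higher were Ccnd2, at 1256 and 337 units, Mcm4, at 442 and 211 units, and Ccnc, at 406 and 152 units. Lower were Cdca5, Cdca7, Mcm5, Ccne1 and a dimmer probe set of Cdkn1a. Ccne1, the cyclin of S phase entry, read 511 units with hCG, the lowest of the 9, and 1172 units in that wild type, the highest of the 9. Nucleotide and S or M phase genes had a median of -0.03 in this comparison. The luteal sum was highest with hCG, at 123057 units, and the sum of 6 erythroid markers was 60565 units, beside 29659 in the tumour and 32467 in that wild type. Most of the latter came from the globin genes Hba-a1 and Hbb-b2, at 38313 and 18485 units with hCG. Against these sums, erythroid Slc4a1 read 618 units with hCG, 1338 in the tumour and 1264 in that wild type. Klf1 read 1040 units with hCG and 1258 in the tumour, and luteal Scarb1 13474 units with hCG and 21406 in that wild type. The epithelial sum was 23287 units, beside 1674 in the tumour. The hCG-treated ovary also had the Gapdh ratios given above, the highest on both chips, while its actin ratios lay within the range of the other arrays. Its BioDn control differed from both partners. On chip A it read 387 units, beside 782 in the tumour and 768 in that wild type. On chip B it read 72.0 units, beside 533 and 531. The part of cell makeup, RNA quality or array handling in these levels was not tested.

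**Figure D4:**
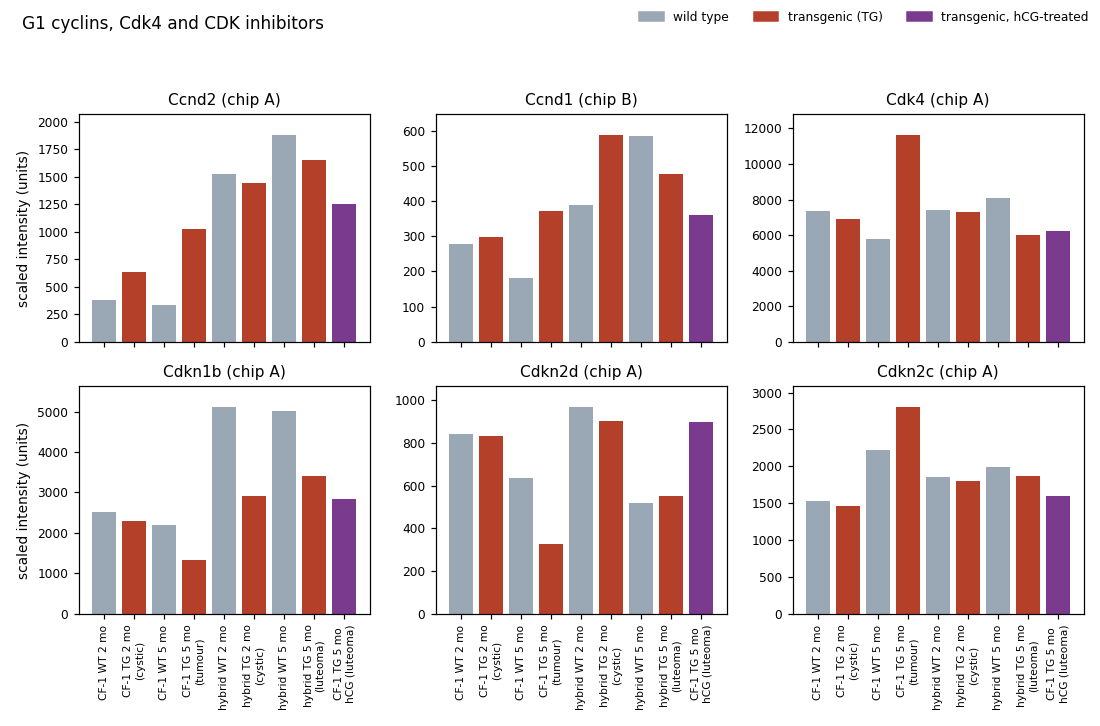
Scaled intensity (units, axis from 0) of 3 G1 genes (upper row) and 3 CDK inhibitor genes (lower row) in the 9 ovaries; each bar is 1 array, grey for wild type, red for transgenic and purple for hCG-treated. Ccnd2 runs from 337 to 1030 units in untreated CF-1 ovaries and from 1446 to 1882 units in hybrid ones, and Cdk4 peaks in the tumour at 11626 units.

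Cyclins D1 and D2 and the inhibitor Cdkn1b read higher in the hybrid ovaries than in the CF-1 ovaries, without passing the adjusted test. With limma, 0 of 81 members passed an adjusted p of 0.05 for hybrid against CF-1, beside 0.0312% of all. At an unadjusted p under 0.05, 5 members were higher in the hybrid (6.17%), beside 4.32% of all, and 1 was lower (1.23%), beside 3.56%. The 5 were Ccnd2, Cdkn1b, Ccnd1, Pola2 and Cdc25c, and the lower one was Cdkn2a. Ccnd1, Pola2 and Cdc25c reached the detection limit only in hybrid ovaries, and Cdkn2a only in CF-1 ovaries. These genes thus entered the test only through the strain in which they read higher, and their p-values do not allow for that. Ccnd2, cyclin D2, read 376, 635, 337 and 1030 units in CF-1 and 1525, 1446, 1882 and 1654 units in the hybrid, in the order used above. The means were 595 ± 319 and 1627 ± 190 units (SD, n = 4 each), and the strains did not overlap. Its log2 difference was 1.59 ± 0.30 (SE), higher in 4 of 4 pairs, at an adjusted p of 0.32 in limma. In CF-1 both transgenic ovaries read above their partners, and in the hybrid both read below. The interaction of genotype with strain was -1.32 in log2 and missed the threshold, at an adjusted p of 0.85 in limma. The hCG-treated CF-1 ovary, at 1256 units, lay between the strains.

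Cdkn1b read 2506, 2289, 2188 and 1333 units in CF-1 and 5116, 2910, 5005 and 3403 units in the hybrid. Its means were 2079 ± 515 and 4108 ± 1119 units (SD, n = 4 each), with a log2 difference of 0.98 ± 0.20 (SE), at an adjusted p of 0.34 in limma. The strains did not overlap, and within each the transgenic ovaries were the lower ones at the same age. Ccnd1, cyclin D1, was dim, at 282 ± 79.3 units in CF-1 and 510 ± 96.0 units in the hybrid (SD, n = 4 each). It reached the detection limit in 2 of 9 ovaries. Cdkn2a, the locus of p16 and p19Arf, was lower in the hybrid in 4 of 4 pairs by a log2 difference of -0.62, at 238 ± 99.6 against 394 ± 49.9 units (SD, n = 4 each). Over the 68 genes the median strain difference was 0.001, beside -0.004 over all.

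Age was compared over the 4 ovaries of 2 months and the 4 untreated ones of 5 months. With limma, 0 of 81 members passed an adjusted p of 0.05, beside 0.0156% of all. At an unadjusted p under 0.05, 8 members were higher at 5 months (9.88%), beside 9.63% of all, and 8 were lower (9.88%), beside 9.91%, so both shares were near the background. The 8 lower were Mki67, Mcm3, Mcm10, Cdc45, Cdca7, Cdkn2d and dimmer probe sets of Rrm2 and Cdk2ap1, and the 8 higher were Cdk5, Cdc42se2, Cdc5l, Cdc34, Cdcp1, Ccne1, Pold2 and Pold4. Licensing genes had a median of -0.34 (8 of 9 lower) and nucleotide and S or M phase genes one of -0.43 (5 of 5 lower), beside -0.02 over all genes.

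Mki67 averaged 2041 ± 255 units at 2 months and 1375 ± 407 units at 5 months (SD, n = 4 each), a log2 difference of -0.61 ± 0.22 (SE) at an adjusted p of 0.22 in limma. It was lower at 5 months in 4 of 4 pairs, but in the hybrid wild types only from 2038 to 1937 units. Mcm10, which helps to start the replication fork, averaged 495 ± 48.6 and 232 ± 175 units (SD, n = 4 each), a log2 difference of -0.90 ± 0.24 (SE) at an adjusted p of 0.16 in limma. Cdk5 averaged 436 ± 154 and 1099 ± 234 units (SD, n = 4 each), a log2 difference of 1.40 ± 0.31 (SE) at an adjusted p of 0.13 in limma, and was higher at 5 months in 4 of 4 pairs without overlap.

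The age comparison depended on the hybrid wild type of 5 months. Without it, 1 member passed: Mcm4, with a log2 difference of -1.21 at an adjusted p of 0.0467 in limma, beside -0.74 and 0.32 with all 8 ovaries. That is 1.23% of the members, while 3.96% of all probe sets passed. Without it, 28 members (34.6%) had an unadjusted p under 0.05, beside 26.3% of all, and with all 8 ovaries 16 members did, beside 19.5% of all. Over all the alternatives tried for Mcm4, the adjusted p ran from 0.0467 to 0.73. The other 3 untreated ovaries of 5 months are the same 3 arrays that stood apart in the control probe sets, and also had low oocyte sums, so that age, these array controls and oocyte content cannot be told apart there. Among the 41 further cell cycle genes, 0 passed with limma after adjustment, 14 were lower and 1 was higher at an unadjusted p under 0.05, and the median age difference was -0.49.

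The members left over from the other roles, not all of which serve other processes, had group means within a small range, while single genes differed more. Among them Cdc23 ranked 24 by likeness to Mki67, at r = 0.92. The 22 tested genes grouped as others, such as Cdc42, Cdc37 (a chaperone partner for kinases), Cdk9 (a kinase of transcription elongation) and Cdc16, had mean levels between -0.15 and 0.15 in log2 relative to their own mean in every ovary. The SD over these genes was 0.25 to 0.43 in log2, depending on the ovary. With age, 12 of them had positive and 10 negative differences, the largest being the 1.40 of Cdk5. Cdc42 read 6303 to 9349 units on chip B and 5499 to 8488 units on chip A. Cdk9 read 1284 to 1913 units. The 2 tested E2F factors were E2f1, which switches on replication genes, and E2f8. E2f1 read 589 units in the luteoma and 718 to 1142 units elsewhere, and E2f8 read 270 to 411 units in the 9 ovaries. Polymerase and clamp genes as a group lay between -0.20 and 0.23 in log2, a narrower range than the -0.62 to 0.44 of the licensing genes.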

How the data were processed

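Whole-ovary RNA of 9 conditions had been hybridised to 2 chip types, 1 array each. The authors deposited 1 linear intensity for each probe set and array, some of them below 0. Their steps before that are not given in the sources used here. Each array was scaled to the mean trimmed mean of its chip type (2nd to 98th percentile), raised to a floor of 184 units on chip A or 291 units on chip B, and taken to log2. Probe sets were tested when they reached 2 floors on at least 2 of 9 arrays. Additive terms for genotype, strain and age were fitted to 8 untreated arrays by lmFit and eBayes (limma 3.58.1, R 4.3.3), leaving 4 residual degrees of freedom. Benjamini-Hochberg adjustment ran over all 6408 probe sets. They measure the spread between single ovaries of different conditions. The fit was tested on simulated data.

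Genes were named from the platform annotation, updated through RefSeq gene models of GRCm38.p6. A gene is led by its brightest tested probe set, and several probe sets ending in f match gene families. Probe set sequences were not used here. Members, lists and tests were chosen with earlier results of these data known. Named were members past the threshold, the 10 of lowest genotype p, up to 5 on each side at least 2-fold apart in each of 6 pairs of arrays (the brighter one at the detection limit), a list fixed by role, and the 5 probe sets most like Mki67. Genes shown for the 4-ovary split, and ranges named beside them, were chosen after their values were seen. Alternatives were quantile normalization, a doubled floor, a floor of 20 units, no filter, trended robust variances and leaving out each ovary.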

Additional observations from a re-analysis of the deposited data

Results flagged for a closer look

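Within the 4 wild-type or the 4 untreated transgenic ovaries, 5 of 76 groups of levels held an ovary far from the other 3. Chance gives about 1 in 20 for genes not chosen by their values. Many of the named genes were chosen for differences in these same ovaries, so that rate is no fair yardstick here. Ccnd3, cyclin D3, read 3446 units in the 5-month CF-1 wild type and 2655 to 2727 units in the other wild types. Its dimmer probe set did not share this, at 801 units there and 590 to 1245 units in the others. Ccne1 read 1172 units in the same ovary and 727 to 774 units in the others. Among transgenic ovaries, Cdkn1a on chip B read 194 units in the CF-1 cystic ovary and 718 to 752 units in the others, which its probe set on chip A did not share. Orc2, of the origin recognition complex, read 917 units in the CF-1 cystic ovary and 449 to 521 units in the others. Its dimmer probe set did not share this, at 419 units there and 269 to 490 units in the others. Rrm2 read 917 units in the hybrid luteoma and 1504 to 1625 units in the others. A dimmer probe set of Rrm2 was also lowest in the luteoma, at 467 units. Another was lowest in the hybrid cystic ovary, at 284 units beside 371 units in the luteoma.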

How the results depend on the processing

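With each ovary left out in turn, the members past limma's adjusted threshold for age ran from 0 to 1; the 1 was Mcm4, without the hybrid wild type of 5 months. The median log2 difference of hCG-treated ovary against tumour was -0.25 without the filter on dim probe sets, which adds dim members, and -0.43 with it. The other counts (genotype, strain and both interactions at 0) and the other 5 medians stayed on their side of the threshold or within the 0.17 log2 SD of the medians of the 4 genotype pairs, under every alternative run. Of 1595 values of 38 named genes under alternatives, 1438 kept direction and side of the threshold, 1 passed it (Mcm4), 156 moved, by a change of sign of an untested or unpassed value or by more than the spread, and 0 called values changed sign. With the 4 pairs of the same strain and age as a block, an alternative chosen after seeing the data that leaves 3 residual degrees of freedom, limma's genotype test passed 0 of 81 members and 0 of all 6408 probe sets after adjustment, and 3 and 623 at an unadjusted p under 0.05. Probe sets near background limit Top2a, Cdc25c, Ccnd1, Ccnc, Mcm10, Cdkn1a, Pola2 and Cdkn2a, whose differences rest on few ovaries above the detection limit.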
